A study of Mus musculus with 12 samples.

Results

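The genes described here are the neutrophil granule, protease and inhibitor genes of a mouse blood transcriptome. They were chosen by symbol from the deposited blood table, as the S100a, Stfa, Cst, Mmp, Mrgpra, Cts, Serpin, Wfdc, Adam, Adamts, Padi, Cebp, Anxa and Capn families together with Ngp, Camp, Ltf, Lcn2, Retnlg and Prtn3. The rule found 85 of the 8003 genes in the table, and 4 of these are also among the 284 genes of the hippocampus table. Elane, Mpo and Ctsg, which the same rule would take, are not among the genes of the blood table.

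All mice were C57BL/6, 15 months old, with 3 in the Ctrl group (labelled Normal) and 3 in the Akk group, and each mouse gave 1 blood library and 1 hippocampus library. The labels describe the Akk treatment as membrane protein of *Akkermansia muciniphila*, for 8 weeks by the sample characteristics and 6 weeks by the treatment protocol. The methods of the study instead describe gavage with a suspension of the bacterium, with pasteurized bacterium, or with a vehicle of PBS and glycerin for the controls. All these mice had received antibiotics (Abx) beforehand. Which form the RNA mice received is not stated, and the methods and results of the study give different courses of gavage. The methods also describe the RNA mice as animals in which the bacterium did not colonize the gut. The study asked how blood transcripts differ between treated and control aged mice. The unit is FPKM, fragments scaled to transcript length and library size, so levels can be compared between genes per length. The sequencing depth of the libraries is unknown. The authors selected the genes of the table on the same 6 libraries and the same contrast, so a count of directions in it is not independent evidence.

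Neutrophils are short-lived white cells that carry ready-made antimicrobial proteins and proteases in granules. The granules are filled in the bone marrow as the cell matures. Proteinase 3 is packed early, lactoferrin, cathelicidin, neutrophilic granule protein and lipocalin 2 at a middle stage, and the gelatinase Mmp9 late. Transcripts of early and middle granule proteins are therefore abundant in marrow precursors and low in mature circulating cells, which keep large amounts of S100a8 and S100a9 transcript. Serpins, stefins, cystatins and WAP-domain proteins include inhibitors of the same classes of protease.

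The 9 neutrophil markers Mmp8, Stfa2, Mrgpra2a, Ly6g, Cxcr2, Csf3r, S100a8, S100a9 and Retnlg are all in the table, and their summed level was 245 to 1360 FPKM in the control libraries and 141 to 361 FPKM in the Akk libraries. The blood also held other cells. The sums of 8 of 8 platelet markers were 355 to 3524 FPKM in the controls and 422 to 525 FPKM in the Akk libraries, those of 8 of 8 monocyte markers 17.7 to 302 and 12.01 to 22.1 FPKM, and those of 7 of 7 NK cell markers 14.7 to 64.2 and 6.80 to 12.3 FPKM. The 5 of 8 T cell markers in the table summed to 8.00 to 26.6 FPKM in the controls and 4.33 to 9.48 FPKM in the Akk libraries, the 3 of 8 B cell markers to 2.90 to 13.6 and 2.23 to 6.32 FPKM, and the 2 of 7 eosinophil and basophil markers to 0.15 to 2.10 and 0.12 to 0.23 FPKM. Of 12 red cell markers, 0 are in the table. No marker in the table was at 0 in all 6 libraries. The Ctrl 1 library stood apart, with the highest value of the 6 for 98.2% of all genes, and the part of cell composition and of this library in the differences below was not tested. In whole blood, fewer neutrophils and less RNA per neutrophil cannot be told apart.

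In the blood of the Akk mice, the mean FPKM of 84 of the 85 genes was lower than in the Ctrl mice, and that of 1, the cathepsin Ctsf, was higher. Almost the whole table ran this way, with a lower mean for 7966 of the 8003 genes and a higher mean for 37. With limma on log2(FPKM + 0.1) and Benjamini-Hochberg adjustment over the 8003 genes, 0 members were lower and 0 higher past both thresholds, a fold change of 1.5 and an adjusted p of 0.05. This was also so for 0% of all genes in each direction, and the adjusted p of the members was between 0.487 and 0.649. At an unadjusted p under 0.05, limma listed 8 members as lower (9.41%), against 3.4% of all genes, and 0 as higher. These were Mrgpra2a, Stfa2, Stfa3, Capn11, Ngp, Camp, Ltf and Prtn3. Every Akk value lay below every Ctrl value for 19 members (22.4%), against 15.4% of all genes, and above it for 1 member, against 0.175%. A two-sided exact permutation test of 3 mice against 3 cannot give a p below 0.1.

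The median log2 fold change was -1.12 for the 85 members and -0.87 for all genes. Much of this followed Ctrl 1, which held the highest value for 81 of the 85 members (95.3%, against 98.2% of all genes). Its value was at a median of 5.63 times the mean of Ctrl 2 and Ctrl 3 for the members and 5.07 times for all genes. Without Ctrl 1 the medians were -0.35 and -0.24. Subtracting the median of each library (centring) moved the median of all genes to 0.04 and that of the members to -0.21. The summed FPKM of the members was 2967, 806 and 494 in Ctrl 1, 2 and 3 and 373, 607 and 476 in Akk 1, 2 and 3. As a share of the sum of the table it was 4.12% to 4.57% in the Ctrl and 3.26% to 5.89% in the Akk libraries, with overlap between the groups. The mean level was below 1 FPKM for 34 members (40.0%), a level seen for 70.4% of all genes.

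The role groups differed in how far they lay from the rest of the table. The 6 granule protein genes had a median log2 fold change of -2.03, the 2 Mrgpra receptors -1.63, the 5 matrix metalloproteases -1.46, the 7 stefins and cystatins -1.34 and the 13 serpins -1.30. The 2 WAP-domain inhibitors were at -1.16, the 9 cathepsins at -1.12, the 2 peptidylarginine deiminases at -1.09 and the 7 S100 genes at -1.03. The 9 calpains, at -0.98, the 9 annexins, at -0.95, the 8 Adam and Adamts genes, at -0.89, and the 6 C/EBP genes, at -0.77, lay nearest to the median of all genes. All 13 medians were negative. With centring and without Ctrl 1, 8 of the 13 were, and that of the granule proteins was then -1.43.

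**Figure D1:**
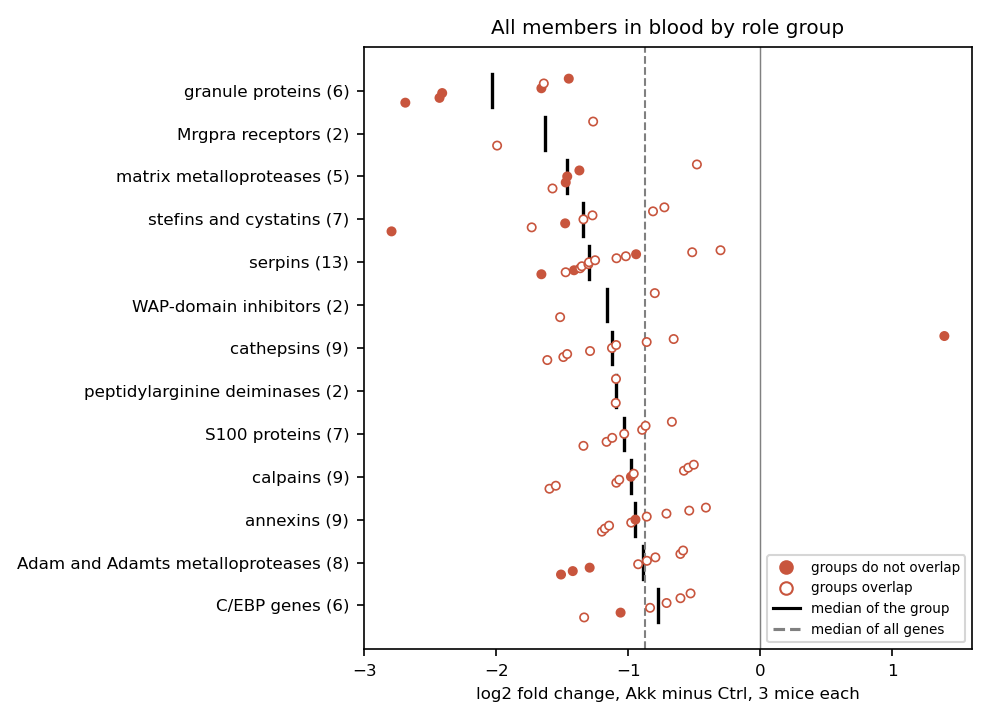
Log2 fold change of each of the 85 members in blood (x axis, Akk minus Ctrl on the log2(FPKM + 0.1) scale, 3 mice each) by role group (y axis, number of genes in brackets), with black bars for group medians and a dashed line for the median of all genes, -0.87. The granule proteins lie farthest to the left, with a median of -2.03, and Ctsf is the point on the right, at 1.40.

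Of the 6 granule protein genes, 5 separated the groups without overlap, against 15.4% of all genes. With centring 1 of the 6 did and with quantile normalization 0, against 4.44% and 3.51% of all genes. Ngp, Camp and Ltf lie on mouse chromosome 9 between 109847377 and 111042766 (GRCm38, 1.20 Mb), while Lcn2 is on chromosome 2, Retnlg on chromosome 16 and Prtn3 on chromosome 10. The 150 bases directly before the RefSeq start of the 3 genes on chromosome 9 are shown because these genes lie near each other and each had no overlap between the groups. They are written in the direction of the gene (build GRCm38.p6), with capitals for matches on either strand to the C/EBP-type motif TTNNGNAA and to GAGGAA, the core of the site of the myeloid factor PU.1.
Ngp, chr9:110419658-110419807, + strand: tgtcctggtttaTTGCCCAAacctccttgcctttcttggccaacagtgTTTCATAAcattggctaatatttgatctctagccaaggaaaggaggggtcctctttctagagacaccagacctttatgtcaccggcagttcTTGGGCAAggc
Camp, chr9:109849457-109849606, - strand: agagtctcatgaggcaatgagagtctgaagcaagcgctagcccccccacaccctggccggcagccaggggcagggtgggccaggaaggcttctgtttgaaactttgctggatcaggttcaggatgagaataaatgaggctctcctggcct
Ltf, chr9:111019142-111019291, + strand: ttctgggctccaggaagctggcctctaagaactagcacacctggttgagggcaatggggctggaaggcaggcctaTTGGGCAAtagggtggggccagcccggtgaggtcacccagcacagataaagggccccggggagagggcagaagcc

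The Ngp window holds 3 matches to TTNNGNAA, the Ltf window 1 and the Camp window 0, and no printed match of the 2 motifs overlaps another. In the full RefSeq promoter windows of 300 bases, 4 of the 6 granule genes hold TTNNGNAA, against 43.4% of 83 promoters of 70 member genes and 40.7% of all 32851 promoters. GAGGAA is in 3 of the 6, in 37.3% of member promoters and in 28.3% of all. A match of letters is a description of the window and not evidence of binding.

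Ngp (NCBI gene 18054), a cystatin-related protein of the secondary granules, was at 18.7, 7.69 and 21.0 FPKM in Ctrl 1, 2 and 3 and at 0.67, 2.90 and 4.86 FPKM in Akk 1, 2 and 3. The lowest control lay above the highest treated mouse, and the highest value was in Ctrl 3 rather than Ctrl 1. Its means were 15.8 ± 7.10 and 2.81 ± 2.10 FPKM (SD, n = 3 each), 5.61 times higher in the Ctrl group. The log2 fold change was -2.69 with a standard error (SE) of 0.94 (limma adjusted p = 0.487), and -2.51 without Ctrl 1.

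Camp (NCBI gene 12796), the precursor of the antimicrobial peptide cathelicidin, was at 3.59, 3.34 and 4.82 FPKM in the controls and at 0.60, 0.37 and 1.11 FPKM in the Akk libraries. Its 3 control values lay close together, and all 3 exceeded the highest treated value. The spread of Camp within the groups was 0.52 (SD on the log2 scale), against a median of 0.90 for all genes. The log2 fold change was -2.43 (SE 0.93, limma adjusted p = 0.487) and -2.48 without Ctrl 1. Its adjusted p ranged from 0.0941, with centring and without Ctrl 1, to 0.999 over the alternatives.

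Ltf (NCBI gene 17002), the iron-binding protein lactoferrin, was at 3.50, 1.41 and 3.94 FPKM in the controls and at 0.17, 0.42 and 0.94 FPKM in the Akk libraries. The order of the libraries was that of Ngp within each group, with Ctrl 3 highest and Akk 1 lowest. The log2 fold change was -2.41 (SE 0.92, limma adjusted p = 0.487) and -2.23 without Ctrl 1. Ltf was at 18.3% to 18.8% of the Ngp level in the 3 Ctrl libraries and at 14.5% to 25.4% in the Akk libraries.

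The other granule genes followed Ctrl 1 more closely. Retnlg (NCBI gene 245195), a secreted resistin-like protein of neutrophils, was at 186, 57.6 and 43.9 FPKM in the controls and at 14.7, 30.4 and 33.2 FPKM in the Akk libraries, without overlap, with a log2 fold change of -1.66 (SE 0.98) and -1.03 without Ctrl 1. Prtn3, the serine protease proteinase 3, had no overlap either, but 5 of its 6 values were 0.09 FPKM or less, beside 1.01 FPKM in Ctrl 1. Lcn2 (NCBI gene 16819), which sequesters bacterial siderophores, was at 45.7, 12.95 and 18.6 FPKM in the controls and at 2.67, 14.4 and 9.10 FPKM in the Akk libraries, so that Akk 2 lay above Ctrl 2. Prtn3 was chosen for mention after its values were seen.

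**Figure D2:**
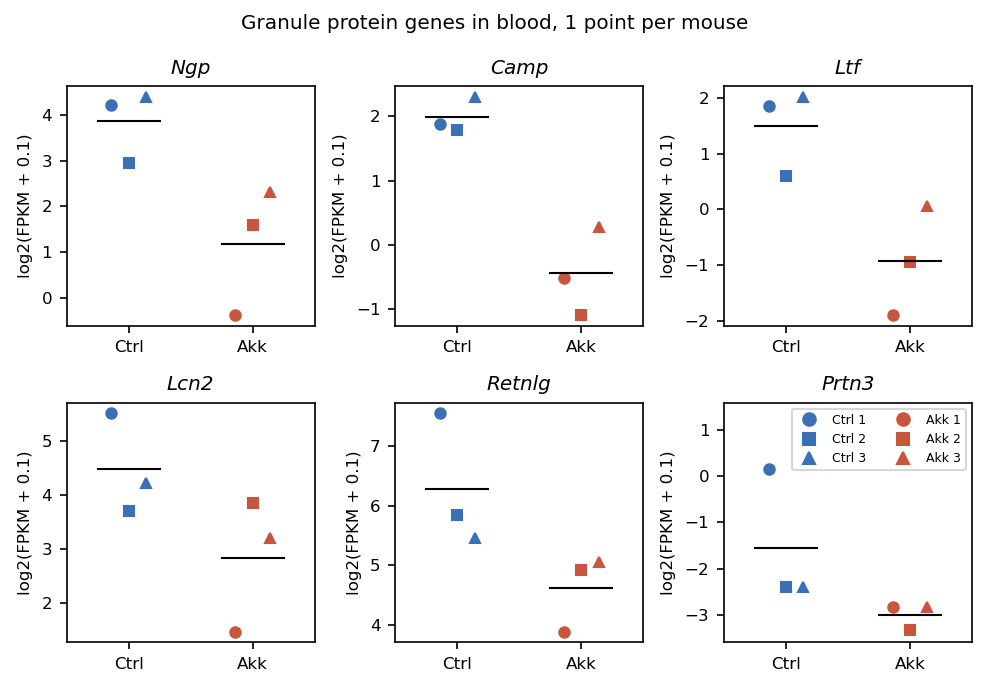
Level of the 6 granule protein genes in each blood library (y axis, log2(FPKM + 0.1), separate scale for each gene), with Ctrl mice in blue, Akk mice in red and a bar at the mean of each group's log2 values. In Ngp, Camp and Ltf the highest library is Ctrl 3, and in Lcn2 the value of Akk 2, 14.4 FPKM, lies above that of Ctrl 2, 12.95 FPKM.

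These 6 genes kept a negative log2 fold change with centring, with quantile normalization and without Ctrl 1. In these settings it was negative for 45.1%, 44.6% and 81.6% of all genes. Ngp, Camp and Ltf were 3 of the 4 members whose highest value was not in Ctrl 1, the other being Ctsf. Together with Prtn3 and Cebpe they are the 5 of 10 immature neutrophil markers in the table. The sum of these 5 was 27.0, 12.5 and 29.97 FPKM in the controls and 1.48, 3.76 and 6.95 FPKM in the Akk libraries, without overlap between the groups. Ngp was the largest part of each sum, at 18.7, 7.69 and 21.0 FPKM in the controls and 0.67, 2.90 and 4.86 FPKM in the Akk libraries. Cebpe by itself overlapped. The other 4 each had no overlap, so that of the sum is not separate evidence. The sums were not centred or otherwise rescaled.

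S100a9 and S100a8 were the most abundant members, and 0 of the 7 S100 genes separated the groups. S100a8 and S100a9 encode the subunits of calprotectin, the main cytosolic protein complex of neutrophils. The S100a9 level (NCBI gene 20202) was 625, 198 and 114 FPKM in the controls and 75.3, 202 and 109 FPKM in the Akk libraries, and that of S100a8 (NCBI gene 20201) was 343, 106 and 66.1 FPKM and 37.9, 106 and 58.4 FPKM. Akk 2 lay above Ctrl 3 in both genes, and above Ctrl 2 in S100a9. The log2 fold changes were -1.03 (SE 1.03) and -1.12 (SE 1.00), and without Ctrl 1 they were -0.35 and -0.45. With quantile normalization that of S100a8 changed sign, to 0.01.

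S100a8 stayed at 50.3% to 58.0% of the S100a9 level in the 6 libraries. Ngp, by contrast, ranged over the 6 libraries from 0.890% to 18.4% of S100a9. It was at 2.99%, 3.88% and 18.4% in Ctrl 1, 2 and 3 and at 0.890%, 1.44% and 4.46% in Akk 1, 2 and 3, so that Akk 3 lay above Ctrl 1 and Ctrl 2. Ltf was at 0.560% to 3.45% of S100a9 in the Ctrl and 0.208% to 0.862% in the Akk libraries, Camp at 0.575% to 4.23% and 0.184% to 1.02%, Lcn2 at 6.53% to 16.3% and 3.55% to 8.34%, and Retnlg at 29.0% to 38.5% and 15.1% to 30.4%. Relative to S100a9, each of these 5 granule genes had its highest value in Ctrl 3 and overlapped between the groups. The ratios were chosen after the values were seen and were not tested.

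**Figure D3:**
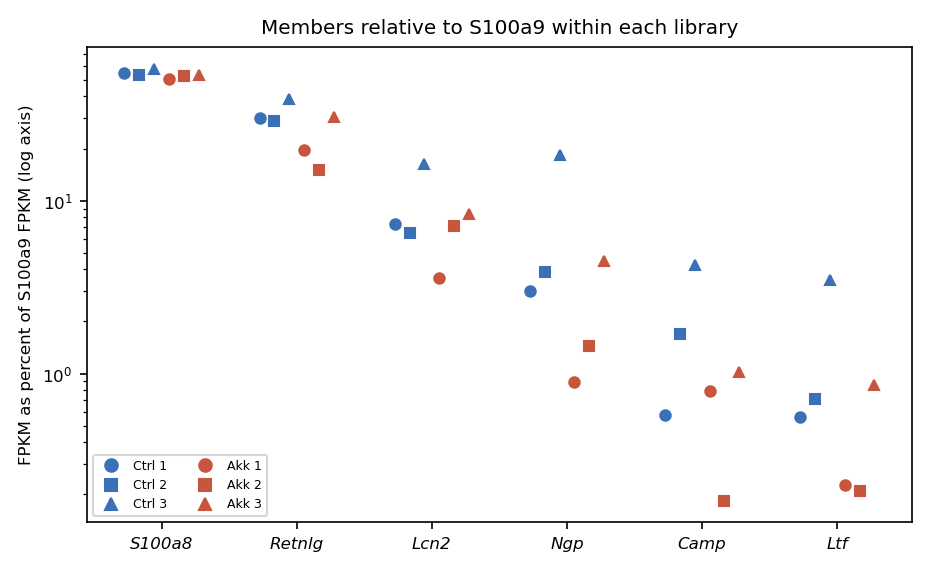
FPKM of 6 members as a percentage of S100a9 FPKM in the same library (y axis, log axis), with Ctrl mice in blue and Akk mice in red. S100a8 lies between 50.3% and 58.0% in every library, and Ngp spreads from 0.890% in Akk 1 to 18.4% in Ctrl 3.

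S100a11, a widely expressed calcium-binding protein, was at 262, 46.3 and 26.3 FPKM in the controls and at 24.3, 30.4 and 38.1 FPKM in the Akk libraries, with Akk 2 and Akk 3 between Ctrl 3 and Ctrl 2. Its transcript is near-identical to Gm12854 and Gm7665, so its level is uncertain. The 7 S100 genes lie on chromosome 3 between 90511034 and 93564645, and 7 of 7 were highest in Ctrl 1, against 98.2% of all genes.

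The stefins are small inhibitors of cysteine proteases, and the 4 Stfa genes of the table lie in a cluster on chromosome 16 between 36156811 and 36455392 (GRCm38). The transcripts of Stfa2 and Stfa2l1 are near-identical, so their reads could be shared, and that of Stfa1 is near-identical to BC100530. The coding sequence of Stfa2 is identical to that of Stfa2l1 at 298 of 309 positions (96.4%), and that of Stfa3 at 252 (81.6%). The first 90 coding bases show this, with capitals where a gene differs from Stfa2l1 (GENCODE M21 transcripts).
Stfa2l1: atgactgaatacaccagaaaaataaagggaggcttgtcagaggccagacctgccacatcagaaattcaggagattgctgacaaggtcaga
Stfa2: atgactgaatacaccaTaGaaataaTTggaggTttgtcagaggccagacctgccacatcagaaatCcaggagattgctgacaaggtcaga
Stfa3: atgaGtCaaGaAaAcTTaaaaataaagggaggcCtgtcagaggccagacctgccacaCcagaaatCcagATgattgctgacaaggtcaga

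The level of Stfa2 (NCBI gene 20862) was 4.63, 0.55 and 0.15 FPKM in the control libraries and 0, 0.13 and 0 FPKM in the Akk libraries. The groups did not overlap, but the lowest control and the highest treated mouse were close. Its log2 fold change of -2.79 (SE 0.85, limma adjusted p = 0.487) depended on the pseudocount, at -1.05 with 1 and -4.95 with 0.01. Stfa2 passed both thresholds with 0.01, at an adjusted p of 0.0139 from limma, and without Ctrl 3, in a range up to 0.999 over the alternatives. Without Ctrl 1 the log2 fold change was -1.61.

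Stfa2l1 (NCBI gene 268885), the near-identical neighbour, was far higher, at 91.2, 12.3 and 6.80 FPKM in the controls and 3.78, 8.17 and 6.53 FPKM in the Akk libraries. Here Akk 2 lay above Ctrl 3, so the groups overlapped. The sum of the pair was 95.8, 12.8 and 6.95 FPKM in the controls and 3.78, 8.30 and 6.53 FPKM in the Akk libraries, and overlapped as well. The log2 difference of the sum was -1.78 with all libraries and -0.67 without Ctrl 1. Stfa3, which passed an unadjusted p of 0.05 and was chosen after its values were seen, was at 0.57, 0.11 and 0 FPKM in the control libraries and was listed at 0 in the 3 Akk libraries.

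Mrgpra2a and Mrgpra2b are Mas-related G protein-coupled receptors that neutrophils express. They lie on chromosome 7 between 47426325 and 47489582, and their coding sequences are identical at 991 of 993 positions (99.8%). Their transcripts are near-identical, so their reads could be shared and the level of each gene, with its zeros, is uncertain. The stretch from coding base 321 to 380 holds 1 of the 2 differences, at base 351, in capitals.
Mrgpra2a: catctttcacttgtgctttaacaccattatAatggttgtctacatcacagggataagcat
Mrgpra2b: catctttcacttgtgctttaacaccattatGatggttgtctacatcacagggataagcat

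Mrgpra2a (NCBI gene 668727) had the lowest unadjusted p of all members, 0.000559 from limma (adjusted p = 0.487). It was at 1.61, 0.27 and 0 FPKM in the control libraries and was listed at 0 in the 3 Akk libraries, so no fold is given and Ctrl 3 equalled the treated mice. Mrgpra2b was at 11.4, 0.72 and 1.21 FPKM in the controls and at 0.47, 1.13 and 1.16 FPKM in the Akk libraries. Apart from Ctrl 1, its values lay in the same range in both groups. The sum of the pair was 12.96, 0.99 and 1.21 FPKM in the controls and 0.47, 1.13 and 1.16 FPKM in the Akk libraries, a log2 difference of -1.47 with all libraries and -0.32 without Ctrl 1. Without Ctrl 3, the control at 0, limma gave Mrgpra2a an adjusted p of 0.00875.

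**Figure D4:**
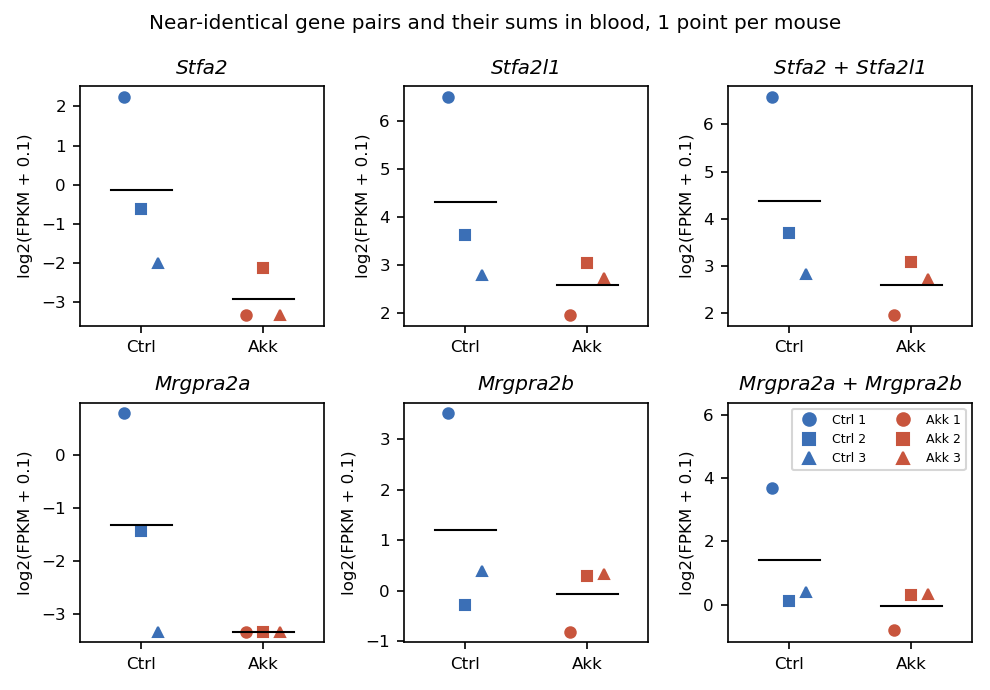
Level of Stfa2 and Stfa2l1 (top) and of Mrgpra2a and Mrgpra2b (bottom), with the sum of each pair on the right (y axis, log2(FPKM + 0.1), separate scales), in Ctrl mice (blue) and Akk mice (red), and a bar at the mean of each group's log2 values. The sums overlap between the groups, with Akk 2 at 8.30 FPKM and Ctrl 3 at 6.95 FPKM for the Stfa2 pair.

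The cystatins of the table are Cst3, Cst7 and Cstb. Cst7, which encodes cystatin F, an inhibitor that acts on cathepsins inside immune cells, was at 2.49, 1.19 and 0.75 FPKM in the controls and at 0.71, 0.35 and 0.26 FPKM in the Akk libraries. The groups did not overlap, although Ctrl 3 and Akk 1 were close, and the log2 fold change of -1.48 (SE 0.92) was -1.04 without Ctrl 1. Cst3, the secreted cystatin C, was at 99.4, 33.9 and 13.6 FPKM in the controls and at 19.7, 8.48 and 16.7 FPKM in the Akk libraries. Cstb overlapped and was higher in the Akk mice by 0.07 on the log2 scale without Ctrl 1.

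Of the 5 matrix metalloproteases, 3 had every Akk value below every Ctrl value, against 15.4% of all genes. Mmp9, the gelatinase of the tertiary granules, was at 40.5, 5.66 and 6.04 FPKM in the controls and at 2.81, 5.36 and 5.12 FPKM in the Akk libraries. The gap between Ctrl 2 and Akk 2 was small, and the log2 fold change of -1.37 (SE 0.94) was -0.45 without Ctrl 1. Mmp8 (NCBI gene 17394), the neutrophil collagenase, was at 16.1, 2.85 and 4.12 FPKM in the controls and at 1.01, 2.92 and 2.18 FPKM in the Akk libraries, and overlapped through Ctrl 2 and Akk 2. Its log2 fold change was -1.57 (SE 0.93, limma adjusted p = 0.487), and -0.84 without Ctrl 1. Mmp19 was at 11.2, 2.53 and 1.62 FPKM in the controls and at 1.03, 1.48 and 1.23 FPKM in the Akk libraries. The membrane-bound Mmp25 also did not overlap, and Mmp24 did.

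Among the 9 cathepsins, the lysosomal proteases, 0 had every Akk value below every Ctrl value, against 15.4% of all genes. Ctsd, an aspartic protease, was at 160, 47.9 and 25.4 FPKM in the controls and at 21.5, 25.5 and 24.3 FPKM in the Akk libraries, Ctss at 92.2, 12.6 and 6.19 and at 11.8, 3.78 and 7.52 FPKM, and Ctsz at 46.1, 10.4 and 5.11 and at 5.53, 3.84 and 5.03 FPKM. In each of these 3 cysteine or aspartic proteases the highest Akk value exceeded the lowest Ctrl value. Ctsf (NCBI gene 56464), a cysteine cathepsin, ran the other way, at 0.27, 2.31 and 1.55 FPKM in the controls and at 3.35, 2.80 and 2.58 FPKM in the Akk libraries. Ctrl 1 was its lowest library, at 0.14 times the mean of Ctrl 2 and Ctrl 3, and the groups did not overlap. Its log2 fold change was 1.40 (SE 0.93, limma adjusted p = 0.487), 0.59 without Ctrl 1 and 2.31 with centring.

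The serpins are suicide inhibitors of serine proteases, and 3 of the 13 (23.1%) separated the groups in the lower direction, against 15.4% of all genes. Serpinb9, an inhibitor of granzyme B, was at 4.75, 0.82 and 0.67 FPKM in the controls and at 0.44, 0.37 and 0.33 FPKM in the Akk libraries, with a log2 fold change of -1.66 (SE 0.92) and -0.82 without Ctrl 1. Serpinb6b and Serpina3f were the others. Serpina3f, chosen after its values were seen, was at 0.54, 0.28 and 0.29 FPKM in the controls and at 0.14, 0.04 and 0.05 FPKM in the Akk libraries, a log2 fold change of -1.41 (SE 0.76) that was -1.17 without Ctrl 1. Serpinb6a, the most abundant serpin, was at 86.2, 18.3 and 10.7 FPKM in the controls and at 8.34, 11.3 and 8.20 FPKM in the Akk libraries, where Akk 2 lay above Ctrl 3. Serpine2 and Serpina3g overlapped, with log2 fold changes of -1.02 and -1.30.

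The WAP-domain genes Wfdc17 and Wfdc21 were both highest in Ctrl 1 and next highest in Akk 2. Wfdc17 was at 71.3, 14.2 and 10.4 FPKM in the controls and at 7.85, 28.7 and 8.79 FPKM in the Akk libraries, and Wfdc21 at 5.25, 2.29 and 1.56 and at 0.21, 2.71 and 0.94 FPKM. Padi4, the enzyme that citrullinates histones when neutrophils release chromatin traps, was at 5.82, 0.73 and 0.58 FPKM in the controls and at 0.42, 0.53 and 0.95 FPKM in the Akk libraries, with Akk 3 above Ctrl 2 and Ctrl 3. Its log2 fold change was -1.09 (SE 0.92) and -0.10 without Ctrl 1. Padi2 had a log2 fold change of -1.10 and overlapped too.

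Of the 8 Adam and Adamts genes, the membrane sheddases Adam10, Adam9 and Adam17 did not overlap (37.5%, against 15.4% of all genes). Adam10 was at 9.42, 1.89 and 1.5 FPKM in the controls and at 1.46, 1.17 and 0.94 FPKM in the Akk libraries, and Adam9 at 5.81, 1.08 and 0.84 and at 0.67, 0.45 and 0.57 FPKM. Adam8, which is stored in neutrophil granules, differed in pattern, at 7.54, 0.68 and 1.00 FPKM in the controls and at 0.61, 1.23 and 1.23 FPKM in the Akk libraries. Without Ctrl 1 its log2 fold change went from -0.79 to 0.22.

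The C/EBP genes encode transcription factors of the myeloid lineage. Cebpb was at 43.1, 7.25 and 4.70 FPKM in the controls and at 7.30, 6.52 and 8.74 FPKM in the Akk libraries, so that Akk 1 and Akk 3 exceeded Ctrl 2 and Ctrl 3, and the log2 fold change went from -0.60 (SE 0.95) to 0.35 without Ctrl 1. Cebpd and Cebpa had log2 fold changes of -1.33 and -0.84, and overlapped. Cebpe, the factor needed for secondary granules and chosen after its values were seen, was at 0.21, 0 and 0.14 FPKM in the controls and at 0, 0.07 and 0 FPKM in the Akk libraries, levels at which the groups could not be ranked. Cebpg was the C/EBP gene without overlap (16.7% of the group, against 15.4% of all genes).

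Among the 9 annexins, which bind phospholipids, Anxa7 separated the groups (11.1%, against 15.4% of all genes). Anxa2 was at 55.6, 9.25 and 4.52 FPKM in the controls and at 5.08, 5.73 and 7.25 FPKM in the Akk libraries, and Anxa1, a regulator of neutrophil migration, at 31.4, 4.31 and 3.99 and at 3.89, 4.56 and 3.90 FPKM. Apart from Ctrl 1, the Anxa1 values of both groups lay in the same narrow range. Anxa5 overlapped, with a log2 fold change of -0.25 without Ctrl 1. Of the 9 calpains, cytosolic cysteine proteases driven by calcium, Capn5 separated the groups (11.1%, against 15.4% of all genes). Capns1, the shared small subunit, was at 55.1, 17.2 and 10.1 FPKM in the controls and at 10.2, 11.1 and 11.5 FPKM in the Akk libraries, and Capn2 and Capn1 had log2 fold changes of -1.60 and -1.07 and overlapped.

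Without Ctrl 1, 19 members (22.4%) had every Akk value below the remaining controls, against 15.6% of all genes, and a gene that separates from 3 controls also separates from 2 of them. The 3 members with every Akk value above Ctrl 2 and Ctrl 3 were Ctsf, Adam19 and Anxa4, against 0.962% of all genes, and Adam19 and Anxa4 were chosen after their values were seen. Among the 6 granule proteins, 5 lay below in this setting too, and their median log2 fold change was -1.68. The medians of the S100 genes and of the annexins were -0.20 and -0.12 without Ctrl 1.

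**Figure D5:**
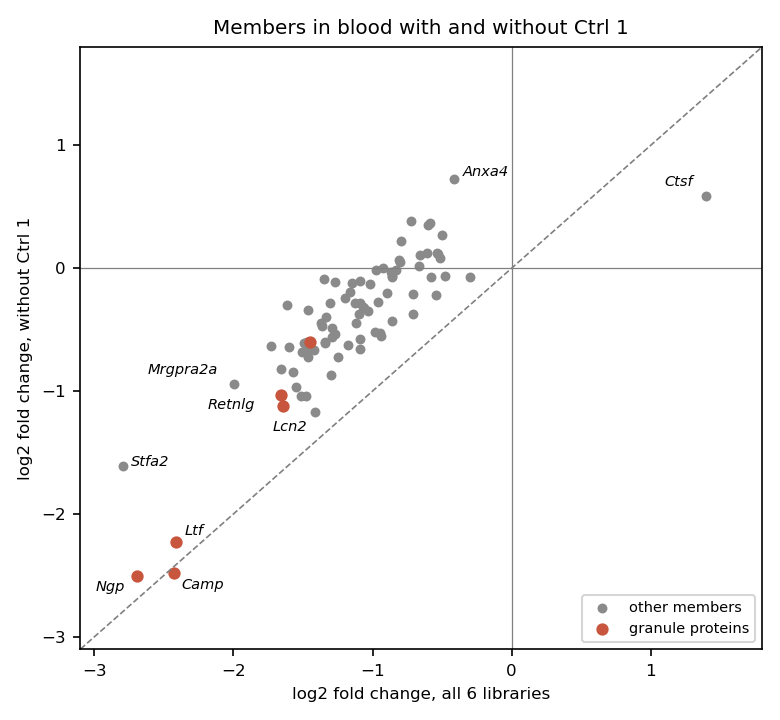
Log2 fold change of the 85 members with all 6 blood libraries (x axis) and without Ctrl 1 (y axis), both Akk minus Ctrl on the log2(FPKM + 0.1) scale, with granule proteins in red, other members in grey and a dashed line of equality. Ngp, Camp and Ltf lie near the line, at -2.69 and -2.51 for Ngp, while most other members lie above it.

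Neutrophil genes that the naming rule did not take, such as receptors, adhesion molecules and oxidase subunits, were listed separately, and 53 of 64 are in the blood table. The mean was lower in the Akk mice for all 53, as it was for 7966 of the 8003 genes of the table. The highest value was in Ctrl 1 for 52 of them (98.1%), against 98.2% of all genes. Limma called 0 lower and 0 higher, 4 (7.55%) had an unadjusted p under 0.05, against 3.4% of all genes, and 13 (24.5%) had every Akk value below every Ctrl value, against 15.4%. Their median log2 fold change was -1.25, and -0.32 without Ctrl 1. Lyz2, the lysozyme of myeloid cells, was at 719, 165 and 58.7 FPKM in the controls and at 107, 69.7 and 108 FPKM in the Akk libraries, and Csf3r, the receptor of the growth factor G-CSF, at 121, 12.2 and 11.7 and at 9.99, 15.7 and 14.4 FPKM. Itgb2, the integrin beta chain of leukocytes, was at 105, 19.3 and 12.95 FPKM in the controls and at 11.3, 11.8 and 13.5 FPKM in the Akk libraries, so all 3 overlapped. Ly6g, the surface marker of mouse neutrophils, was at 4.36, 0.92 and 1.11 FPKM in the controls and at 0.10, 0.68 and 0.65 FPKM in the Akk libraries, without overlap. Cxcr2, also a marker, was at 58.1, 4.25 and 4.16 FPKM in the controls and at 1.66, 4.30 and 4.14 in the Akk libraries. It overlapped between the groups. Of the 9 neutrophil markers, 3 had every Akk value below every Ctrl value, against 15.4% of all genes.

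In the hippocampus of the same mice, 4 members were in the table, and limma called 0 of them, against 1.06% of the 284 genes in either direction. These 284 genes are not all transcripts of the hippocampus, and they may have been chosen on this contrast. Capn11 (NCBI gene 268958), a calpain best known from testis, was at 3.12, 7.02 and 2.44 FPKM in the controls and at 0.44, 0.75 and 0.36 FPKM in the Akk libraries. It was the member whose Akk values all lay below the Ctrl values, a pattern of 7.04% of those 284 genes. Its means were 4.19 ± 2.47 and 0.517 ± 0.206 FPKM (SD, n = 3 each), a log2 fold change of -2.70 (SE 0.57, limma adjusted p = 0.120), and leaving out single libraries gave values from -3.01 to -2.26. The adjusted p was 0.0907 to 0.359 over the alternatives.

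In blood Capn11 was far lower, at 0.60, 0.33 and 0 FPKM in the controls and at 0, 0.02 and 0 FPKM in the Akk libraries (log2 fold change -1.55, SE 0.53, limma adjusted p = 0.487), and it passed both thresholds without Ctrl 3, at an adjusted p of 0.0340. The groups overlapped there, since Ctrl 3 was at 0. In the hippocampus S100a8 was at 0.39, 0.98 and 1.43 FPKM in the controls and at 0.38, 0.36 and 1.64 FPKM in the Akk libraries, Cst7 at 0.29, 0.88 and 0.87 and at 0.14, 0.48 and 0.34 FPKM, and Padi4 at 0.18, 0.22 and 0.26 and at 0.07, 0.20 and 0.20 FPKM. These 3 overlapped between the groups, with log2 fold changes of -0.36, -0.87 and -0.36 and adjusted p-values from limma of 0.995, 0.696 and 0.827.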

How the data were processed

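Total RNA was enriched for mRNA with oligo(dT) and sequenced on the BGISEQ-500. The authors deposited FPKM per gene, rounded to 2 decimals, for blood and hippocampus. The study's methods name HISAT2, Bowtie2 and RSEM, and the submitters' processing notes name TopHat2, Cufflinks and GRCm38, so which made the FPKM is not settled here. Depth could not be derived, so precision is set by the number of mice.

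Groups came from the labels. The log2(FPKM + 0.1) values were compared with limma 3.58.1 (R 4.3.3, variance trend, no scaling, no replicate block), with Benjamini-Hochberg adjustment over the whole table, and the fits were tested on simulated data. Values were summarised in Python 3.11.15 with numpy 2.4.6 and pandas 2.3.3, and plotted with matplotlib 3.10.9. All 85 genes matched RefSeq by gene ID. Near-identical means at least 95% identity over at least 50% of the transcript, which 7 members met.

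The members, role groups and lists were chosen with earlier results of these data known. Genes named were the markers, the 3 most abundant of each role group, up to 5 per direction with the largest fold change without overlap, members higher in Akk, members in the hippocampus table, and the 3 most abundant other neutrophil genes. Ly6g and Cxcr2 are named as markers.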

Additional observations from a re-analysis of the deposited data

How the results depend on the processing

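The counts of members past the thresholds were 0 lower and 0 higher in blood, and stayed so with a pseudocount of 1, a mean FPKM of at least 1, centring, quantile normalization, no variance trend and a fold change threshold of 2. A pseudocount of 0.01 gave 1 lower member (Stfa2) among 4 such genes in the table, and the fits that left out each library in turn gave 0 to 4, with 4 (Mrgpra2a, Capn11, Stfa3 and Stfa2, 4.71% of the members) without Ctrl 3, where 0.287% of all genes were called lower. Mean FPKM differing by a ratio of 1.5 or more, untested, gave 84 lower and 1 higher. The methods of the study select genes at that same fold change, so this count was largely fixed by the selection. It is not a result about the members. Across the whole table the mean was lower, at any ratio, for 7966 of the 8003 genes and higher for 37. With the replicate number as a block, 0 members were lower and 0 higher in each tissue; the numbers mark different mice, and deviations of same-numbered libraries correlated at -0.02 on average in blood and -0.16 in the hippocampus. The hippocampal counts and those of the other neutrophil genes stayed at 0 under these limma settings.

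The median log2 fold change of the members was -0.066 with quantile normalization and -0.096 with centring and without Ctrl 1. In the latter setting 8 role groups had a negative median, a count added after seeing the data, as were its values for single genes. Members without overlap in the lower direction went from 19 to 4 with centring (4.71%, against 4.44% of all genes), to 3 with quantile normalization (3.53%, against 3.51%) and to 10 of 51 at a mean FPKM of at least 1 (19.6%, against 20.1%). Leaving out single libraries gave 19 to 58, with 58 without Ctrl 3 (68.2%, against 57.8% of all genes) and 30 without Akk 2 (35.3%, against 18.6%). In the higher direction they went from 1 to 4 with centring, 6 with quantile normalization and 3 without Ctrl 1, against 4.01%, 4.95% and 0.962% of all genes.

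The log2 fold change was positive for 1 of the 85 members at first, for 27 with centring, 33 with quantile normalization, 16 without Ctrl 1 and 34 with both centring and no Ctrl 1. As shares these were 1.18%, 31.8%, 38.8%, 18.8% and 40.0%, against 0.475%, 54.9%, 55.4%, 18.4% and 51.6% of all genes. Of the members picked by the naming rule, those that became positive with centring were at 0.10 for Cstb, 0.12 for Wfdc17, 0.12 for Adam8, 0.31 for Cebpb and 0.079 for Cebpa. With quantile normalization they were at 0.011 for S100a8, 0.31 for Cstb, 0.10 for Serpine2, 0.41 for Wfdc17, 0.28 for Adam8, 0.62 for Cebpb, 0.19 for Cebpa, 0.074 for Anxa2, 0.18 for Anxa1, 0.29 for Capns1 and 0.082 for Capn1. Without Ctrl 1, those picked by the naming rule were Cstb at 0.068, Wfdc17 at 0.048, Adam8 at 0.22 and Cebpb at 0.35. Members outside that rule were positive too, such as Anxa4 at 0.73 and Stfa1 at 0.38. Leaving out single libraries gave -1.71 to 0.068 for Cstb, -1.39 to 0.048 for Wfdc17, -1.43 to 0.22 for Adam8 and -1.24 to 0.35 for Cebpb. With both centring and no Ctrl 1, S100a11 was at 0.053, Cstb at 0.32, Mrgpra2b at 0.14, Serpine2 at 0.12, Wfdc17 at 0.30, Adam8 at 0.47, Padi4 at 0.15, Cebpb at 0.60, Cebpa at 0.24, Anxa2 at 0.13, Anxa1 at 0.24 and Anxa5 at 0.0042. These again are only members picked by the naming rule, and outside it Anxa4 was at 0.98 and Stfa1 at 0.63. The cause was not tested.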
